A study of Mus musculus with 2 samples.

Results

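A set of 10 receptor genes through which the adrenal medulla receives its nerve input were followed in the adrenal gland of the mouse. They are 6 nicotinic acetylcholine receptor subunits (Chrna3, Chrna4, Chrna5, Chrna7, Chrnb2 and Chrnb4), the muscarinic receptor Chrm3, the PACAP receptor Adcyap1r1 and the VIP receptors Vipr1 and Vipr2. The genes were chosen by name from a fixed list, and 10 of 10 were found among the 55536 annotated genes. Total RNA was sequenced from adrenal glands of female B6CASTF1/J mice, an F1 hybrid with C57BL/6 and CAST parents, aged 25 days. These formed 1 group of 2 libraries, replicate 1 and replicate 2, with no treatment named in the labels and no other group, each made from 300 ng of RNA with a strand-keeping kit and with synthetic spike-in RNAs. The labels differ on whether the libraries came from separate animals, so an SD here (n = 2) may be a purely technical spread.

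The splanchnic nerve ends on the chromaffin cells of the medulla and releases acetylcholine and the peptide PACAP. Acetylcholine opens nicotinic receptors, channels of 5 subunits that depolarise the cell and let calcium trigger the release of adrenaline and noradrenaline, and it also acts on muscarinic receptors coupled to G proteins. PACAP binds the receptor PAC1, encoded by Adcyap1r1, which raises cyclic AMP and calcium and keeps secretion and catecholamine synthesis going during prolonged stimulation.

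The whole gland was sequenced, so cortex, vessels, nerve endings and medulla are mixed. All 12 chromaffin markers reached 1 TPM or more in both libraries, with a summed level of 1177 TPM in replicate 1 and 2071 TPM in replicate 2, led by Chgb in the mean of the libraries, and all 7 cortical markers did so too, led by Hsd3b1. Replicate 1 held 19366343 deposited expected counts and replicate 2 held 33728646, and nuclear protein-coding genes other than Lars2 took 36.3% and 66.1% of them. The libraries also differed in other tissues' RNA: the 4 liver markers, led by Alb at 141 and 3.47 TPM, summed to 183 TPM in replicate 1 and 3.74 TPM in replicate 2. The 4 adipocyte markers, led by Fabp4, summed to 689 and 824 TPM. On counts scaled between the libraries by the main method below, all 4 were nonetheless lower in replicate 2 (median log2 ratio -0.40). TPM, the deposited unit of level, is per length of transcript and has the same sum in each library, spike-ins and ribosomal RNA included. A second scale, coding TPM, gives that sum to the nuclear protein-coding genes alone and so takes out the unequal coding share. In a whole gland, fewer cells of a type and less RNA per cell cannot be told apart.

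The nicotinic alpha subunits are set apart from the beta subunits by a pair of adjacent cysteines in the loop that closes over the agonist. The codons of that pair, in capitals, are shown with 15 bases on each side for the 4 alpha genes, read 5′ to 3′ from the annotated transcripts, because this feature divides the subunits into alpha and beta.
Chrna3: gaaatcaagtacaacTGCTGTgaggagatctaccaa
Chrna4: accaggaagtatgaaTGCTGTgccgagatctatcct
Chrna7: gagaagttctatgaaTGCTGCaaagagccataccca
Chrna5: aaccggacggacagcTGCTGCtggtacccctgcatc
Counted from the start codon, the pair was at codons 222 and 223 in Chrna3, 227 and 228 in Chrna4, 212 and 213 in Chrna7, and 234 and 235 in Chrna5. In the same stretch of the coding sequence the search found 0 such pairs in Chrnb2 and 0 in Chrnb4. The alpha5 subunit holds the pair but is known as an accessory subunit that does not form the usual agonist site.

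The 10 genes spanned a wide range of levels, and Adcyap1r1 was the highest of them in both libraries. By gene total, 6 of them, Adcyap1r1, Chrna7, Chrna4, Chrna3, Chrm3 and Chrnb4, were at 1 TPM or more in both libraries, Chrm3 only with its noncoding transcripts counted. Chrnb2 passed this level in replicate 2 alone, and Chrna5, Vipr1 and Vipr2 were below it in both. Of the 22028 protein-coding genes, 11474 reached it in replicate 1 and 12275 in replicate 2, and the median coding gene was at 1.26 and 2.10 TPM. The receptor genes ranged from Adcyap1r1, which was above 70.4% and 73.9% of them, to Vipr2, above 30.6% and 27.1%.

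**Figure D1:**
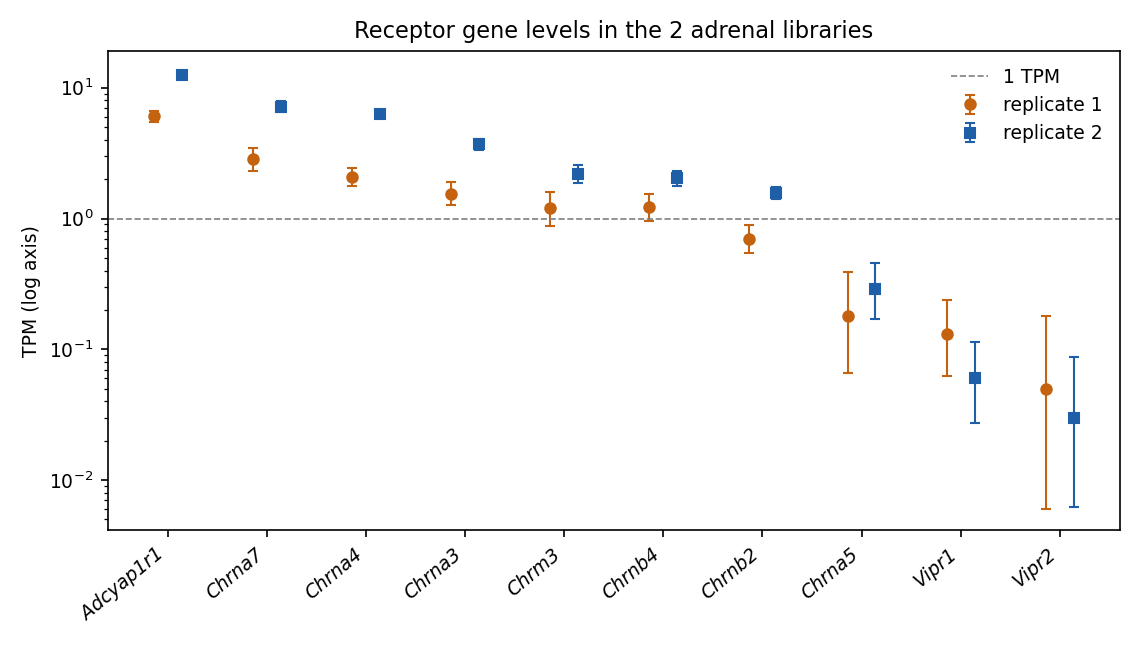
TPM (log axis) of each of the 10 receptor genes in replicate 1 (circles) and replicate 2 (squares), ordered by mean, with exact 95% Poisson intervals of the count behind each value; the dashed line is 1 TPM. Adcyap1r1 lies highest at 6.07 and 12.5 TPM, and Vipr1 and Vipr2 lie lowest, at 0.13 TPM or less.

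Chrna3 and Chrnb4 encode the alpha3 and beta4 subunits, which together form the ganglionic type of receptor known from chromaffin cells and autonomic neurons. Chrna3 had 98 counts and 1.55 TPM in replicate 1 and 410 counts and 3.70 TPM in replicate 2, a mean of 2.63 ± 1.52 TPM (SD, n = 2). Chrnb4 had 73 counts and 1.23 TPM in replicate 1 and 231 counts and 2.03 TPM in replicate 2, a mean of 1.63 ± 0.57 TPM (SD, n = 2). Both were higher in TPM in replicate 2, but on the coding TPM scale Chrnb4 was level, at 5.95 and 6.0, while Chrna3 was at 7.49 and 10.9. Within a library the level of Chrna3 was 1.26 times that of Chrnb4 in replicate 1 (95% interval 0.921 to 1.73) and 1.82 times in replicate 2 (1.55 to 2.15). The ratio was thus above 1 beyond counting error in replicate 2 and not distinguishable from 1 at the depth of replicate 1.

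Chrna5 encodes alpha5, which joins alpha3 and beta4 as an accessory subunit and alters the channel's calcium permeability and desensitisation. It had 6 counts and 0.18 TPM in replicate 1 and 18 counts and 0.29 TPM in replicate 2, a mean of 0.24 ± 0.08 TPM (SD, n = 2). Chrna3 was 8.61 times as high in replicate 1 (3.82 to 24.0) and 12.8 times in replicate 2 (7.97 to 21.7). The second quantification gave smaller ratios, 5.33 and 6.74, with Chrna5 at 0.31 and 0.80 TPM. The low level of Chrna5 beside its partner held in both libraries and both quantifications.

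These 3 genes sit side by side on mouse chromosome 9 (mm10, GENCODE M21): Chrna5 at chr9:54980880-55007779 on the plus strand, Chrna3 at chr9:55010111-55026562 on the minus strand and Chrnb4 at chr9:55028154-55048779 on the minus strand. By mean TPM, Chrna3 was first of the 3, then Chrnb4 and Chrna5. The order was the same in both libraries, but the step from Chrna3 to Chrnb4 was within counting error in replicate 1. The exons of the 3 genes do not overlap those of any other annotated gene. An antisense gene on the opposite strand within the span of Chrnb4, Gm47877, had 0 counts in both libraries.

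Chrna7 encodes alpha7, which forms channels without other subunits and passes much calcium. It was the highest nicotinic gene by mean TPM, with 95 counts and 2.85 TPM in replicate 1 and 458 counts and 7.18 TPM in replicate 2, a mean of 5.02 ± 3.06 TPM (SD, n = 2). Its level stood above that of Chrna3 in both libraries: Chrna3 was at 0.544 of the level of Chrna7 in replicate 1 (0.406 to 0.729) and at 0.515 in replicate 2 (0.450 to 0.590). Of its 2 annotated transcripts, the coding one held 92.0% and 93.4% of the TPM, and the rest was on a noncoding one. Each of these transcripts has most of its bases to itself, 81.4% and 86.2%.

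Chrna4 and Chrnb2 encode alpha4 and beta2, partners in the most common high-affinity nicotine receptor of the brain. Chrna4 had 153 counts and 2.09 TPM in replicate 1 and 868 counts and 6.31 TPM in replicate 2, a mean of 4.20 ± 2.98 TPM (SD, n = 2), second among the nicotinic genes. Chrnb2 had 67 counts and 0.70 TPM in replicate 1 and 305 counts and 1.57 TPM in replicate 2, a mean of 1.14 ± 0.62 TPM (SD, n = 2). Chrna4 was 2.99 times as high as Chrnb2 in replicate 1 (2.23 to 4.04) and 4.02 times in replicate 2 (3.52 to 4.59). The alpha gene of this pair thus exceeded its beta partner in both libraries, by more than the alpha3 gene exceeded beta4. Almost all Chrna4 reads fell to the full-length coding transcript, at 100% and 97.7% of the TPM.

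Chrnb2 is a member whose count needs care in reading. Its exons share 1365 of 8380 bases (16.3%) with those of Adar, an RNA-editing enzyme gene on the opposite strand at 5.70 and 13.3 TPM, and it is the single member with such an overlap. The kit keeps the strand, but whether counting used it is not given in the sources used here, and the part of the overlap in the counts was not tested. The first quantification gave an uncertainty of 0.00 counts (posterior SD) to the gene total in both libraries, as for all 10 members, so no doubt over sharing reads with other genes was recorded.

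Together the 6 nicotinic members made up nearly all of the nicotinic transcripts of the gland. The 16 subunit genes summed to 9.33 TPM and 21.9 TPM in the libraries, of which the 6 members took 92.2% and 96.4%. In the second quantification they took 85.3% and 93.6%. Chrna7 held 30.5% and 32.8% of the sum, Chrna4 22.4% and 28.9%, and Chrna3 16.6% and 16.9%. The beta genes held less, with Chrnb4 at 13.2% and 9.29% and Chrnb2 at 7.50% and 7.18%, and Chrna5 held 1.93% and 1.33%. The order of these 6 shares was the same in both libraries and in both quantifications. Of the 10 other subunit genes 0 reached 1 TPM in both libraries, and in the first quantification 8 had at most 3 counts in either. Chrnb1, the muscle beta1 subunit, led the 10 there with 14 and 26 counts (0.51 and 0.59 TPM), and Chrna9, known from hair cells, followed by TPM with 1 count in each library. The second quantification gave more counts to some of them: 15 and 27 to Chrna2, 7.90 and 15.2 to Chrna1, and 7.27 and 11.4 to Chrnb3.

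**Figure D2:**
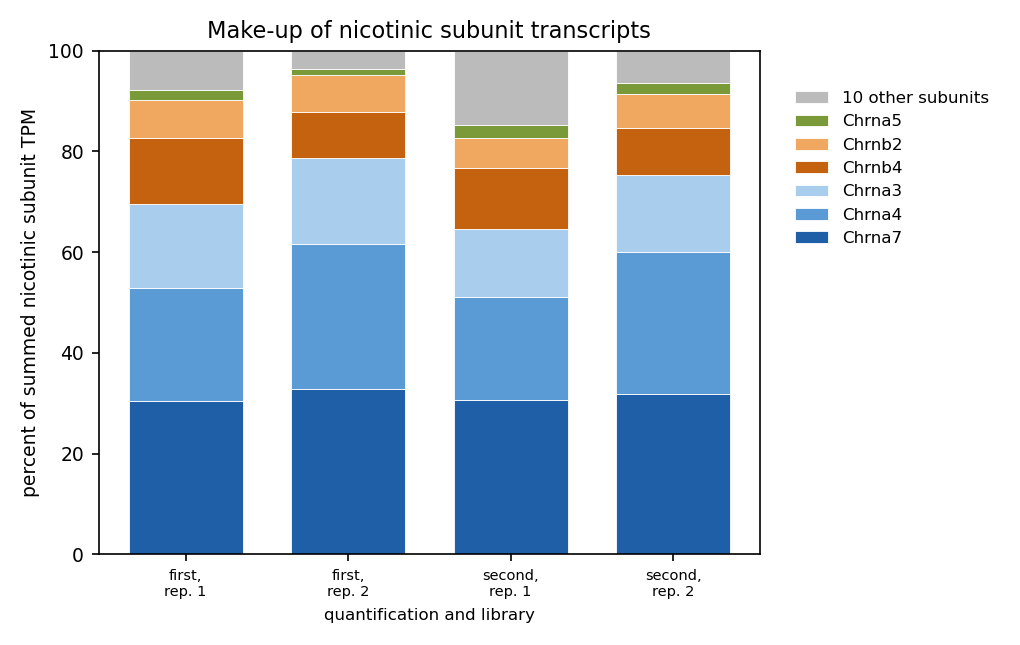
Percent of the summed TPM of 16 nicotinic subunit genes (vertical axis) held by each of the 6 members and by the 10 others together, for each quantification and library (horizontal axis). Chrna7 is the largest share in each bar, 30.5% and 32.8% in the first quantification, and the 10 other subunits form the grey top.

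Chrm3 encodes the M3 muscarinic receptor, which couples to Gq proteins and the release of calcium from stores. It had 47 counts and 1.20 TPM in replicate 1 and 151 counts and 2.20 TPM in replicate 2, a mean of 1.70 ± 0.71 TPM (SD, n = 2). Smooth muscle of vessels is also known to carry this receptor; 4 of 5 smooth muscle and pericyte markers reached 1 TPM in both libraries, with a summed level of 25.7 and 49.0 TPM, and their part in the Chrm3 level was not tested. Among the 5 muscarinic genes Chrm3 was the highest in both libraries. Chrm1, the M1 receptor, followed by mean TPM, with 29 and 125 counts (0.33 and 0.78 TPM), although Chrm4 was above it in replicate 1. By gene total, Chrm3 exceeded Chrm1 3.64 times in replicate 1 (2.24 to 5.99) and 2.82 times in replicate 2 (2.21 to 3.60). Chrm4 was at 0.36 and 0.31 TPM, Chrm2 had 0 and 8 counts, and Chrm5 had 0 counts in both libraries. At a count of 0 the 1-sided 95% Poisson limit is about 3 counts. The 4 other muscarinic genes were below 1 TPM in both libraries in the first quantification; in the second, Chrm1 was at 0.37 and 1.28 TPM.

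The coding share of Chrm3 was less than its gene total. The 2 coding transcripts held 56.2% of its TPM in replicate 1 and 41.4% in replicate 2. That is 0.68 and 0.91 TPM, so Chrm3 passed 1 TPM in both libraries only as a gene total. The rest of its TPM lay on a short noncoding transcript and one that retains an intron. The short one is only 584 bases long, and 17.1 estimated counts were enough to give it 51.0% of the gene's TPM in replicate 2. In the second quantification the coding transcripts held 69.4% and 56.7%, at 0.84 and 1.57 TPM. The interval of the ratio of Chrm3 to Chrm1 does not cover this split. In the first quantification the coding transcripts of Chrm3, at 0.68 and 0.91 TPM, stood beside 0.33 and 0.78 TPM for the whole of Chrm1.

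Adcyap1r1 encodes PAC1, a receptor of the secretin family that binds PACAP with far higher affinity than VIP. It had 425 counts and 6.07 TPM in replicate 1 and 1864 counts and 12.5 TPM in replicate 2, a mean of 9.28 ± 4.53 TPM (SD, n = 2). On the coding TPM scale it was at 29.3 and 36.9. Its level was 2.13 times that of Chrna7, the next gene in the order, in replicate 1 (1.70 to 2.69) and 1.74 times in replicate 2 (1.57 to 1.93). The step from PAC1 to the nicotinic genes was therefore beyond counting error in both libraries. For scale, Th, the rate-limiting enzyme of catecholamine synthesis, was 18.6 and 13.6 times as high as Adcyap1r1.

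PAC1 is made in several splice forms that differ in a loop inside the cell, where G proteins bind, by the cassettes called hip and hop. The cassettes are shown because the forms below are defined by them (mm10, plus strand, from the annotated transcripts), with hip at chr6:55487659-55487742, hop1 at chr6:55491227-55491310 and hop2 at chr6:55491230-55491310. Capitals in hop1 mark the 3 bases that hop2 lacks.
hip: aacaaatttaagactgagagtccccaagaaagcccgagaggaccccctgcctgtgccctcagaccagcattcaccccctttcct
hop1: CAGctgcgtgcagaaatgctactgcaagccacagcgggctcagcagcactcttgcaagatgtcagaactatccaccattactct
hop2: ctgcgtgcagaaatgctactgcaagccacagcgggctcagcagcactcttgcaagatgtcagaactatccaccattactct
Hip and hop1 are 84 bases (28 codons) each and hop2 is 81 bases (27 codons), so each keeps the reading frame.

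The form without a cassette took most of the Adcyap1r1 transcripts, and the hop1 form was the leading one of those with a cassette in replicate 2. In replicate 1 of the first quantification hop1 and hop2 were at 0.61 and 0.59 TPM, a gap well within the posterior SD of their counts. Of the 8 annotated transcripts, 2 partial ones were left out of the shares of forms that follow. Among the 6 other forms, the form without a cassette held 72.7% of the TPM in replicate 1 and 69.4% in replicate 2. Over all 8 transcripts it held 60.7% and 63.9% (50.1% and 52.0% in the second quantification), so which library has the larger share turns with the transcripts counted. Hop1 held 12.1% and 23.5%, and hop2 held 11.7% and 3.83%. The hip form was at 0 in both libraries, and the form with hip and hop1 held 0% and 1.22%. Any cassette together came to 23.7% and 28.5%. The hop1 form rested on 35.7 ± 8.50 estimated counts (posterior SD) in replicate 1 and 305 ± 27.8 in replicate 2, and hop2 on 15.8 ± 5.92 and 22.8 ± 10.9.

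The second quantification kept the same leading form and gave the cassettes a larger share. There the form without a cassette held 60.2% and 55.7%, any cassette held 39.8% and 41.1%, and the form with hip and hop1 held 5.94% and 8.43%. These shares measure the cassettes indirectly. The transcript without a cassette has 2546 bases of its own of 6107, and 0 of them are coding. Its share thus rests largely on its long noncoding end. The hop1 transcript has 50 bases of its own, 0 of them coding, and the hop2 transcript has 0, so the split between these forms is indirect too. The form that skips 2 small exons of the outer, ligand-binding part, of 21 bases (chr6:55474560-55474580) and 42 bases (chr6:55475467-55475508), held 3.56% and 2.09% in the first quantification and 0% and 3.20% in the second. The 2 skipped exons are shown because their loss defines this form.
Exon of 21 bases: tctggatgacagaaaccatag
Exon of 42 bases: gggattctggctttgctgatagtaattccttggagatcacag

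**Figure D3:**
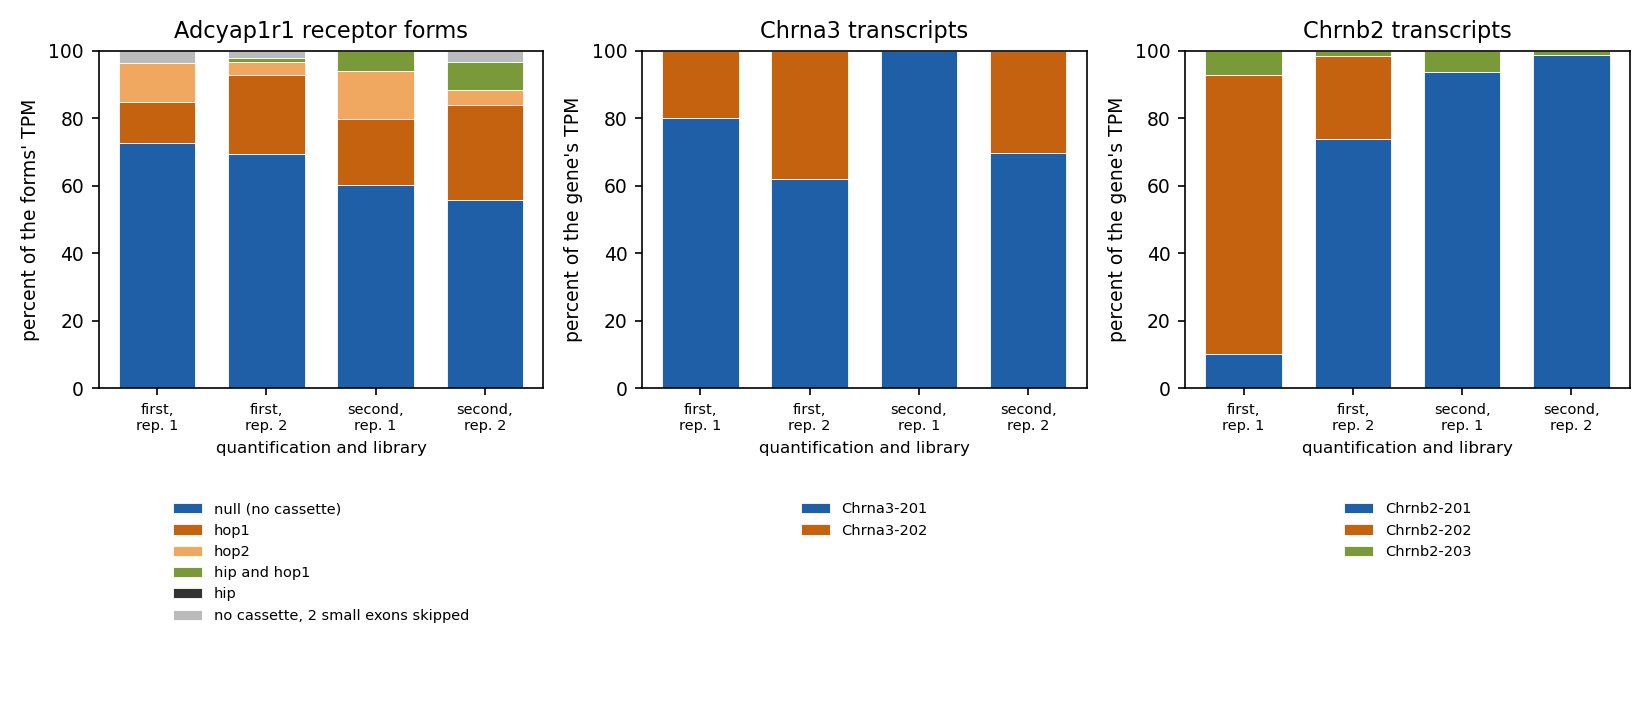
Percent of TPM by annotated transcript in each quantification and library: the 6 Adcyap1r1 forms (left), the 2 Chrna3 transcripts (middle) and the 3 Chrnb2 transcripts (right), where blue is the main coding transcript and orange the shorter coding one of Chrna3 and the noncoding one of Chrnb2. The Adcyap1r1 form without a cassette leads in all 4 bars, while Chrnb2 changes its leading transcript in the bar of the first quantification and replicate 1, where the noncoding transcript holds 82.6%.

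Vipr1 and Vipr2 encode VPAC1 and VPAC2, which bind VIP and PACAP alike. Vipr1 had 10 counts and 0.13 TPM in replicate 1 and 9 counts and 0.06 TPM in replicate 2, and Vipr2 had 2 counts and 0.05 TPM and 3 counts and 0.03 TPM. Both lay below 1 TPM in both libraries, and their order was not distinguishable, with a ratio of Vipr1 to Vipr2 of 2.60 (0.554 to 24.4) in replicate 1 and 2.00 (0.499 to 11.5) in replicate 2. Adcyap1r1 exceeded Vipr1 46.7 times in replicate 1 (25.1 to 98.1) and 208 times in replicate 2 (109 to 456). Among the 3 receptors that bind PACAP, PAC1 was thus the one with nearly all of the transcripts. Vipr1 is a receptor that liver is also known to express, and the liver markers were higher in replicate 1 (183 against 3.74 TPM summed), as Vipr1 was; their part in its level was not tested.

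In the order of mean TPM, Adcyap1r1 came first, then Chrna7, Chrna4, Chrna3, Chrm3, Chrnb4, Chrnb2, Chrna5, Vipr1 and Vipr2. The steps from Adcyap1r1 to Chrna7, from Chrna7 to Chrna4 and from Chrna4 to Chrna3 were beyond counting error in both libraries. So were the steps from Chrnb4 to Chrnb2 and from Chrnb2 to Chrna5. Chrna7 over Chrna4 was a narrow step, at 1.36 times in replicate 1 (1.04 to 1.77) and 1.14 times in replicate 2 (1.01 to 1.28), and Chrna4 over Chrna3 was as narrow in replicate 1, at 1.35 times (1.04 to 1.76). Chrna3 over Chrm3 and Chrna5 over Vipr1 were beyond counting error in replicate 2 alone. Chrm3 and Chrnb4 could not be ordered, at a ratio of 0.976 (0.661 to 1.43) and 1.08 (0.877 to 1.34). In TPM the SD between the libraries reached 4.53 for Adcyap1r1. The gap between neighbouring TPM means was smaller than the larger of their SDs at each step from Adcyap1r1 down to Chrnb2. In TPM this order thus rests on comparisons within each library. On the coding TPM scale (SD, n = 2) the gap exceeded the larger SD from Adcyap1r1 (33.1 ± 5.33) to Chrna7 (17.5 ± 5.26). It also did from Chrna3 (9.22 ± 2.43) to Chrm3 (6.15 ± 0.50) and from Chrnb4 (5.97 ± 0.04) to Chrnb2 (4.01 ± 0.89). It did not from Chrna7 to Chrna4, from Chrna4 to Chrna3 or from Chrm3 to Chrnb4.

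Chrna3 and Chrnb2 were among the members whose transcript split was not stable. The leading transcript of Chrm3, Chrna5, Vipr1 and Vipr2 also changed between libraries or quantifications, with few counts for Chrna5, Vipr1 and Vipr2. The longer coding transcript of Chrna3 held 80.0% of its TPM in replicate 1 and 62.0% in replicate 2. The rest was on a shorter coding transcript, whose own 907 bases all lie in sequence that the longer one removes as an intron (chr9:55014230-55015136). The coding bases that only the shorter transcript has (chr9:55015095-55015136, minus strand) are shown because they are where its reading frame departs.
Chrna3 alternative end: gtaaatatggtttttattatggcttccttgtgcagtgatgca
In the second quantification the shorter transcript was at 0% in replicate 1 and 30.4% in replicate 2. For Chrnb2 the first quantification gave a noncoding transcript 82.6% of the TPM in replicate 1 (56.9 ± 12.2 counts, posterior SD) and 24.6% in replicate 2 (73.2 ± 32.4 counts). The main coding transcript held 10.2% and 73.9%, and the second quantification gave it 93.8% and 98.8%. The noncoding and the coding transcript have only 36 and 24 bases of their own, so the split between them had little sequence to rest on, and the gene total is the safer value.

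The nerve's own transmitter genes were at or near 0 counts. The cell bodies of this nerve lie in the spinal cord, outside the gland. Chat, which makes acetylcholine, and Slc18a3, which loads it into vesicles, had 0 counts in both libraries, and Slc5a7, the choline transporter, had 0 and 2 counts. The enzymes that break acetylcholine down were measured: Ache had 58 and 265 counts (1.41 and 3.60 TPM) and Bche had 102 and 322 counts (1.02 and 2.39 TPM). Of the 7 genes for synthesis, transport and breakdown, these 2 were the ones at 1 TPM or more in both libraries. The PACAP gene Adcyap1 had 2 counts and 1 count, and the VIP gene Vip had 0 and 4. Of 6 ligand genes of the secretin family 0 reached 1 TPM, and 5 had at most 3 counts in either library. Peripheral neuron markers were low, with 2 of 8 at 1 TPM or more and a summed level of 9.06 and 18.6 TPM, led by Snap25, which chromaffin cells are also known to express.

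The leading genes that help nicotinic subunits fold and reach the surface, or bind them there, stood above the subunits. Of 10 such genes, 8 were at 1 TPM or more in both libraries. Ly6e, of the Ly6 family of surface proteins, was at 81.9 and 134 TPM, Tmem35a, the chaperone NACHO needed for alpha7 assembly, at 45.4 and 82.4 TPM, and Rer1, a retention receptor of the early secretory pathway, at 22.6 and 37.9 TPM. All 3 stood above Chrna7, the highest subunit, in both libraries. Ric3, another alpha7 chaperone, was at 6.70 and 12.5 TPM. These are levels of the whole gland, and those in the cells that carry the subunits were not measured.

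The signal arms below the receptors were also transcribed. On the Gq side, used by M3 and in part by PAC1, 9 of 10 genes were at 1 TPM or more in both libraries, led by Itpr1, a calcium release channel, at 41.5 and 55.5 TPM, Plcb1, a phospholipase C, at 17.7 and 31.7 TPM, and the G protein gene Gna11 at 16.1 and 25.7 TPM. On the Gs side, used by PAC1, 8 of 12 genes passed, led by Gnas at 519 and 823 TPM and by the protein kinase A genes Prkaca at 59.7 and 99.4 TPM and Prkacb at 16.6 and 40.7 TPM. These genes act in most cell types of the gland, cortex included, and their levels in the medulla alone were not measured. Among 9 other receptors and accessory proteins of the secretin family, 4 passed: Ramp2, Ramp3, Sctr and Ramp1. Sctr, the secretin receptor, was at 1.56 and 2.63 TPM, below Adcyap1r1 in both libraries.

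**Figure D4:**
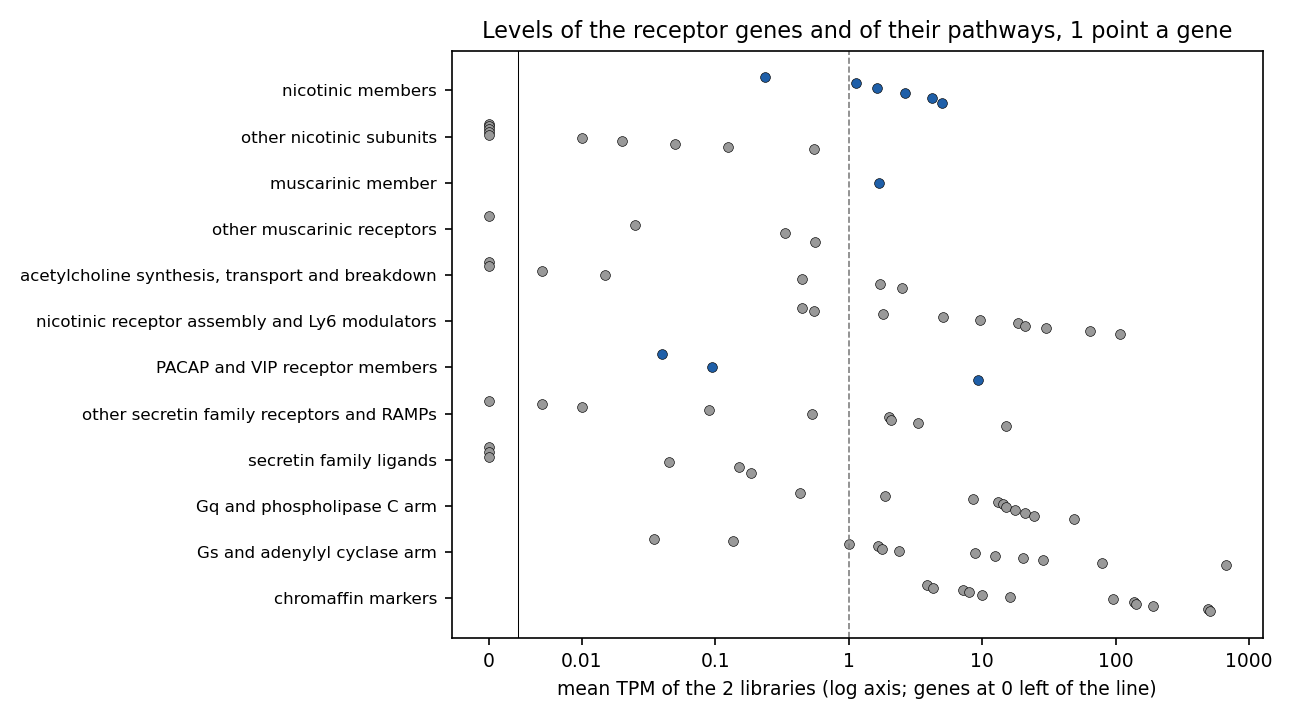
Mean TPM of the 2 libraries (log axis, with genes at 0 drawn left of the solid line; dashed line, 1 TPM) for each gene of the receptor lists, in blue, and of the lists around them, in grey, 1 point a gene. The ligand genes and the 10 other nicotinic subunits all lie below 1 TPM, and the chromaffin markers all lie above it.

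The libraries were set against each other to see how far each receptor gene's count could be repeated. The test was an exact conditional binomial test of TMM-scaled counts with Benjamini-Hochberg adjustment over the 16882 genes whose mean count was 10 or more. It compares these libraries, not conditions, and covers counting error only. Of the 8 receptor genes with enough counts, 4 were called different at an adjusted p under 0.05, and all 4 were higher in replicate 2. Among all genes tested, 25.4% were called, 12.7% as higher and 12.8% as lower in replicate 2. The 8 genes had a median log2 ratio of 0.41 (range -0.09 to 0.82), beside 0.03 for all tested genes, of which the central 95% ran from -1.09 to 1.02. All 8 lay within that central range.

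Chrna4 differed most, with a log2 ratio of 0.82 (fold 1.77, 95% interval 1.49 to 2.11, exact binomial test, adjusted p = 1.41e-10). Chrna7 followed at 0.58 (fold 1.50, 1.20 to 1.89, adjusted p of the exact binomial test 0.00156). Chrnb2 was at 0.50 (fold 1.42, 1.08 to 1.87, adjusted p of the exact binomial test 0.0369). Adcyap1r1 was at 0.45 (fold 1.37, 1.23 to 1.52, adjusted p of the exact binomial test 4.60e-08).

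Chrna3 was at 0.38 (fold 1.30, 1.04 to 1.64) and missed the threshold, with an adjusted p of 0.0686 in the exact binomial test. Chrnb4 was at -0.02 (0.754 to 1.30 as a fold), Chrm3 at 0.00 (0.717 to 1.42) and Chrna5 at -0.09 (0.355 to 2.87). The interval of Chrna5, with its 6 and 18 counts, reaches far on both sides of 1. Vipr1, at 10 and 9 counts, and Vipr2, at 2 and 3, were too low to enter the test; the fold of Vipr1 was 0.280 (0.101 to 0.767) and that of Vipr2 0.467 (0.0535 to 5.59).

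The chromaffin markers moved as well, 9 of 12 as higher and 2 of 12, Th and Chgb, as lower in replicate 2, with a median log2 ratio of 0.18. When the libraries were scaled by the summed counts of these 12 markers, an alternative chosen after the data were seen, 3 receptor genes were called instead of 4. Chrnb2 was the one that dropped out, with an adjusted p of 0.0692 in the exact binomial test, while its log2 ratio of 0.45 was little changed. Chrna4, Chrna7 and Adcyap1r1 stayed higher in replicate 2, at log2 ratios of 0.77, 0.53 and 0.40. The share of chromaffin cells in each library was not tested. All 4 liver and all 4 adipocyte markers were called lower in replicate 2 (median log2 ratio -7.59 and -0.40), as were 2 of the 3 zona glomerulosa markers, while the third was called higher; their part in the receptor genes' ratios was not tested. With this scale 9.28% of all tested genes were called higher and 16.4% lower. Scaling by the spike-ins added Chrna3 (log2 ratio 0.51), against 27.2% of all genes higher and 6.98% lower. Scaling by total counts called 7 of the 8 genes, against 83.1% of all genes higher and 1.59% lower.

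**Figure D5:**
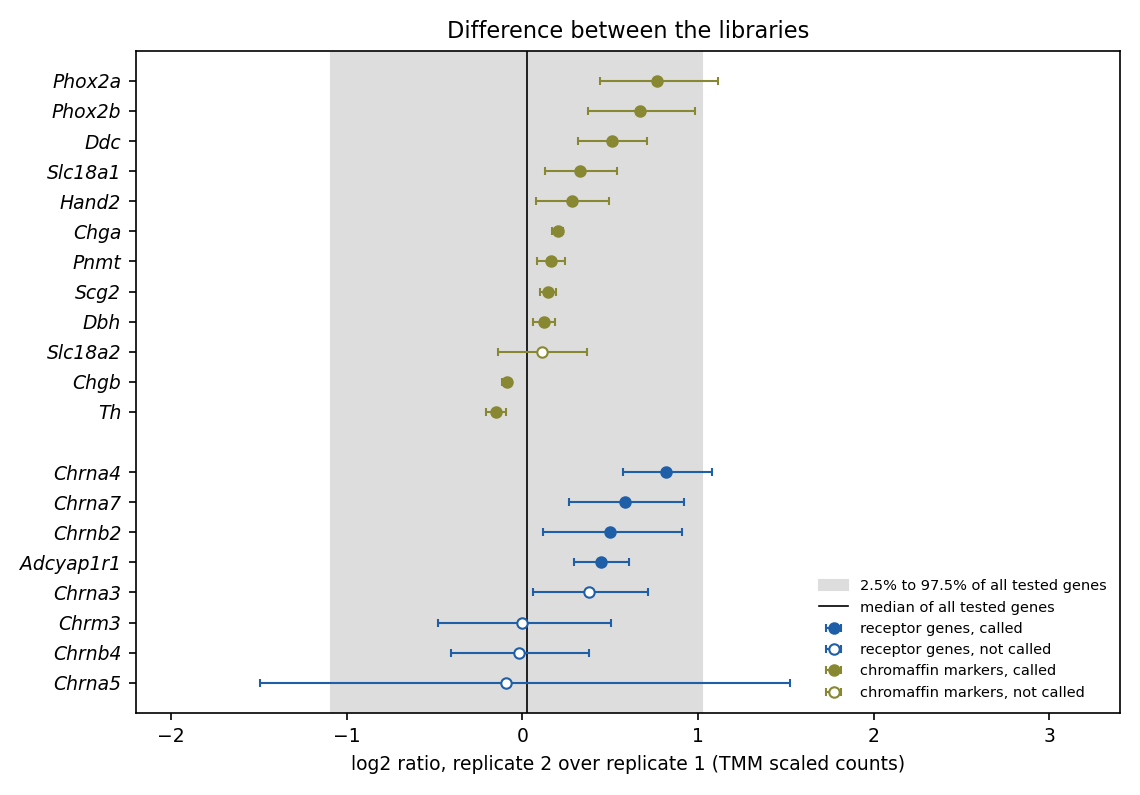
Log2 ratio of replicate 2 over replicate 1 from TMM-scaled counts (horizontal axis), with exact 95% intervals, for the 8 tested receptor genes (blue) and the 12 chromaffin markers (olive); filled points were called at an adjusted p under 0.05. The grey band is the central 95% of all tested genes, -1.09 to 1.02, and every point lies within it.

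In the lists around the receptors, genes were called in both directions, beside 12.7% of all tested genes called higher and 12.8% called lower. Of the 10 assembly genes 2 were called, both higher in replicate 2: Tmem35a (log2 ratio 0.12) and Lypd6 (0.53), a Ly6 family member. Of the 10 Gq genes 4 were called higher (Gnaq, Plcb1, Plcb3 and Itpr2) and Itpr1 was called lower. Of the 11 tested Gs genes 3 were called higher (Adcy1, Adcy9 and Prkacb) and 3 lower (Gnas, Adcy3 and Adcy7). The largest of these ratios was that of Adcy7, an adenylyl cyclase, at -0.63, with 1.77 TPM in each library. Gcgr, the glucagon receptor known from liver, was the only gene called among the other secretin family receptors, at 0.73 and 0.33 TPM (log2 ratio -1.81). It was higher in replicate 1, as the liver markers were, whose part in it was not tested. Among the other nicotinic, other muscarinic and acetylcholine genes 0 were called, of 1, 2 and 2 genes tested. The genes Ric3, Ramp1, Lypd6, Gcgr, Chat, Slc18a3, Slc5a7, Gnaq, Plcb3, Itpr2, Adcy1, Adcy3, Adcy7 and Adcy9 were singled out after their values were seen.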

How the data were processed

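A total of 2 adrenal RNA libraries of 1 group were analysed. Per the notes deposited beside the files, reads were quantified against mm10 with GENCODE M21 by a program not given in the sources used here. Deposited by the authors were 2 quantifications: gene and transcript tables of expected counts, TPM and percent of a gene's abundance per transcript, and a second transcript table of estimated counts and TPM, summed here per gene. The first also holds a posterior SD of each count. Identifiers were matched to symbols through the transcript table and the annotation, which left 0 of 55536 genes unnamed. The deposited expected counts were rounded and scaled by TMM (edgeR 4.0.16, R 4.3.3; alternative size factors, DESeq2 1.42.0), and log2 ratios used a prior of 1 count. The binomial test, run in scipy 1.17.1, and its intervals were tested on simulated data. Intervals of levels are exact Poisson, and those of ratios exact Clopper-Pearson, at 95%. All cover counting error only, and reads are not independent molecules. Receptor genes are all named; of other lists the 3 highest may be named, and Th, Pnmt, Star and Alb. Zona glomerulosa, Schwann, endothelial, macrophage, T lymphocyte, adipocyte and skeletal muscle markers were also checked. The genes and lists were chosen with earlier results of these data known.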

Additional observations from a re-analysis of the deposited data

How the results depend on the processing

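With a threshold of 2 TPM, 3 receptor genes passed in both libraries instead of 6; 0.5 TPM or coding TPM gave 7, the second quantification 6, and leaving out one library in turn 6 to 7. Against TMM, total-count scaling moved the scale between the libraries by 0.88 on the log2 scale and spike-in scaling by 0.13; ratios of genes with few counts rose by less, because of the prior. Total-count scaling called 7 genes (background 84.6%) and turned the log2 ratio of Chrnb4 from -0.02 to 0.86. DESeq2 size factors, a mean count of at least 100 and no minimum gave 4 calls (backgrounds 25.4%, 33.5% and 15.8%), spike-in scaling 5 (34.2%), the second quantification 5 (24.9%) and chromaffin marker scaling 3 (25.7%). With no minimum, Vipr1 was called lower and Chrnb2 was not called; in the second quantification Vipr1 was called lower in replicate 2 (log2 ratio -1.63). Chrna4, Chrna7 and Adcyap1r1 were called higher under all 7 alternatives. The prior does not enter the test; with 0.25 counts the log2 ratio of Vipr2 was -1.01 instead of -0.81. Of the other marker lists, 3 of 3 zona glomerulosa, 3 of 5 Schwann, 3 of 3 endothelial, 2 of 3 macrophage, 0 of 3 T lymphocyte, 4 of 4 adipocyte and 0 of 4 skeletal muscle markers reached 1 TPM in both libraries. Depth limits Chrna5, Vipr1 and Vipr2, with at most 18 counts in a library. No paired analysis was possible because there is only 1 group.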
